A study of Homo sapiens with 2 samples.

Results

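Amino acid transporters are the membrane proteins of the solute carrier (SLC) families that move amino acids, and related molecules such as taurine and creatine, across the plasma membrane, the lysosome or the inner mitochondrial membrane. The set described here holds 38 human genes, out of 19775 genes that had a probe set of their own on the array. It was given as a list of names with no threshold on a measured value. Its members were, however, chosen with earlier results of these data known. All 38 had at least 1 such probe set, 102 in all, and 33 reached the intensity floor explained below. Both groups came from SW620, an established human colorectal cancer line first grown from a metastasis in a lymph node, cultured in RPMI-1640 medium. In the SOX2 knockdown group a lentiviral short hairpin RNA (shRNA) was directed against SOX2, a transcription factor of stem and progenitor cells. In the mock knockdown group the cells carried a lentiviral shRNA control with no target. The labels do not say whether either culture was a clone or a pool, and they give no time after infection. The design text names the genes under SOX2 control in colorectal cancer cells as the question. Each group held 1 Affymetrix array, hybridized from 250 ng of total RNA, so no replicates exist, no test of a difference was possible, and precision is limited by the small number of arrays. All values below come from this pair of arrays.

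Cells take up amino acids through a few kinds of transporter that work together. Sodium-coupled carriers such as the SLC38 family load small neutral amino acids, above all glutamine, into the cell. Exchangers then trade that load for other amino acids, and several of them are built from a light chain of the SLC7 family bound to a heavy chain of the SLC3 family. Facilitated carriers let amino acids leave along their gradient, and mitochondrial carriers of the SLC25 family move glutamate, aspartate and ornithine into and out of the mitochondrial matrix. When amino acids run short the kinase GCN2 raises translation of the transcription factor ATF4, whose known targets include several of these transporters. In the gut, transporters of the apical membrane absorb amino acids from the lumen and others release them to the blood.

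The deposited values are intensities on a linear scale. A gene was read at its brightest probe set, the 1 with the highest mean log2 intensity over both arrays, and its other probe sets served as a check. A gene counted as measured when it reached the floor, the median of all intensities other than array controls, 68.5, on at least 1 array. Every difference is the log2 value on the SOX2 knockdown array minus that on the mock array, and a difference of 1 either way is 2-fold. Where the dimmer array lay under the floor, the fold is taken against the floor and is a lower bound.

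SOX2 checked the labels: its brightest probe set read 2077 in mock cells and 20.9 after SOX2 knockdown. Another probe set of SOX2 read 333 and 120, a difference of -1.47, and its 2 others were under the floor on both arrays, at 34.8 and 26.0 and at 59.1 and 56.6, so the depth of the knockdown depended on the probe set. Median intensities were 69.0 in mock cells and 68.1 after SOX2 knockdown. Markers of colorectal epithelium were present, with 9 of 10 at the floor in mock cells and 10 of 10 after SOX2 knockdown, and summed intensities of 50614 and 63379. Of 6 fibroblast markers, 4 and 3 reached the floor, with sums of 619 and 519, and of 4 endothelial markers 2 and 2, with sums of 277 and 249. Among 5 leukocyte markers 2 and 3 reached the floor and the sum went from 438 to 12031, almost all of it LYZ, a lysozyme that gut epithelium also makes, while the defining leukocyte markers PTPRC and CD3E stayed under the floor on both arrays. The ratio of the 3′ to the 5′ control probe set, a sign of RNA integrity, was 1.04 and 1.06 for GAPDH and 1.20 and 1.43 for ACTB in mock cells and after SOX2 knockdown. The part of these differences in the results below was not tested.

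The sequences just upstream of the start site are shown for 5 members that the results turn on: the transporter with the largest positive difference (SLC1A1), those with the largest negative difference (SLC38A5) and with 3 probe sets all lower (SLC38A2), the light chain of the leucine exchanger (SLC7A5) and the main arginine importer (SLC7A1). Each run is the 120 bases before the start, 5′ to 3′ on the gene's own strand, from RefSeq on GRCh38.p14. Capitals mark matches to the motifs searched.
SLC1A1 (chr9:4490348-4490467, plus strand): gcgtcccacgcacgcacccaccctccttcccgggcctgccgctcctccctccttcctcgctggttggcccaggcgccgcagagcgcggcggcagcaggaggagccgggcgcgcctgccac
SLC38A5 (chrX:48470261-48470380, minus strand): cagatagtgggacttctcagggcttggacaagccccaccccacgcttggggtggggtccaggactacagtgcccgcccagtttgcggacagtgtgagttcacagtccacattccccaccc
SLC38A2 (chr12:46372774-46372893, minus strand): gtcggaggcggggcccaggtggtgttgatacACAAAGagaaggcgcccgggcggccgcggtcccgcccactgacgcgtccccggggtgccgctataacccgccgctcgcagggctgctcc
SLC7A5 (chr16:87869508-87869627, minus strand): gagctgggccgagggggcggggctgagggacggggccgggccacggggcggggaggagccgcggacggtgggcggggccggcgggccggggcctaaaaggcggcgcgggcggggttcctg
SLC7A1 (chr13:29595689-29595808, minus strand): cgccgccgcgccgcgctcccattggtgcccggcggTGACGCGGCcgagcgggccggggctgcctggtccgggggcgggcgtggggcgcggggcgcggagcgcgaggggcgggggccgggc
The capitals in SLC38A2 are a match to the core letters of SOX sites, and those in SLC7A1 a match to the antioxidant response element core, the site of NRF2. A RefSeq window was found for 32 of the 38 members, 56 windows in all because some genes have several starts, and the 250 bases before each start were searched on both strands. The core of the amino acid response element bound by ATF4, TGATGNAA, was in 2 of the 56 windows, 1 each of SLC1A3 and SLC1A5, and in 3.14% of all 35116 windows. The SOX core letters, ACAANG, were in 20 of the 56 windows and in 30.9% of all windows. The antioxidant core, TGACNNNGC, was in 8 of the 56 and in 10.9% of all, and it can overlap a SOX match. The 8 windows were 1 each of SLC1A3, SLC1A5, SLC25A13, SLC25A22, SLC3A2, SLC7A1, SLC7A6 and SLC7A7, genes that lay on both sides of 0 in the values below. A match describes letters in this window, and a window without one says nothing of the factor.

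After SOX2 knockdown 4 of the 33 measured transporters were higher by 2-fold or more and 6 were lower by as much, which is 12.1% and 18.2%. Over all 13609 genes measured the shares were 8.44% higher and 7.29% lower. By 1.5-fold or more 6 were higher and 10 lower, beside 15% and 14.8% of all genes, and 17 transporters lay within 1.5-fold. The median difference was -0.07, beside -0.0063 over all genes. SLC1A1, SLC7A2 and SLC16A10 reached the floor only on the array where they were brighter and so had to differ. Among the 30 transporters at the floor on both arrays, 2 were at least 2-fold higher and 5 lower, beside 6.68% and 5.58% of all genes held to the same condition. The median of the set thus lay near 0. The measured SLC38 genes of the set lay below 0, and its measured SLC6 genes and mitochondrial carriers above 0.

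**Figure D1:**
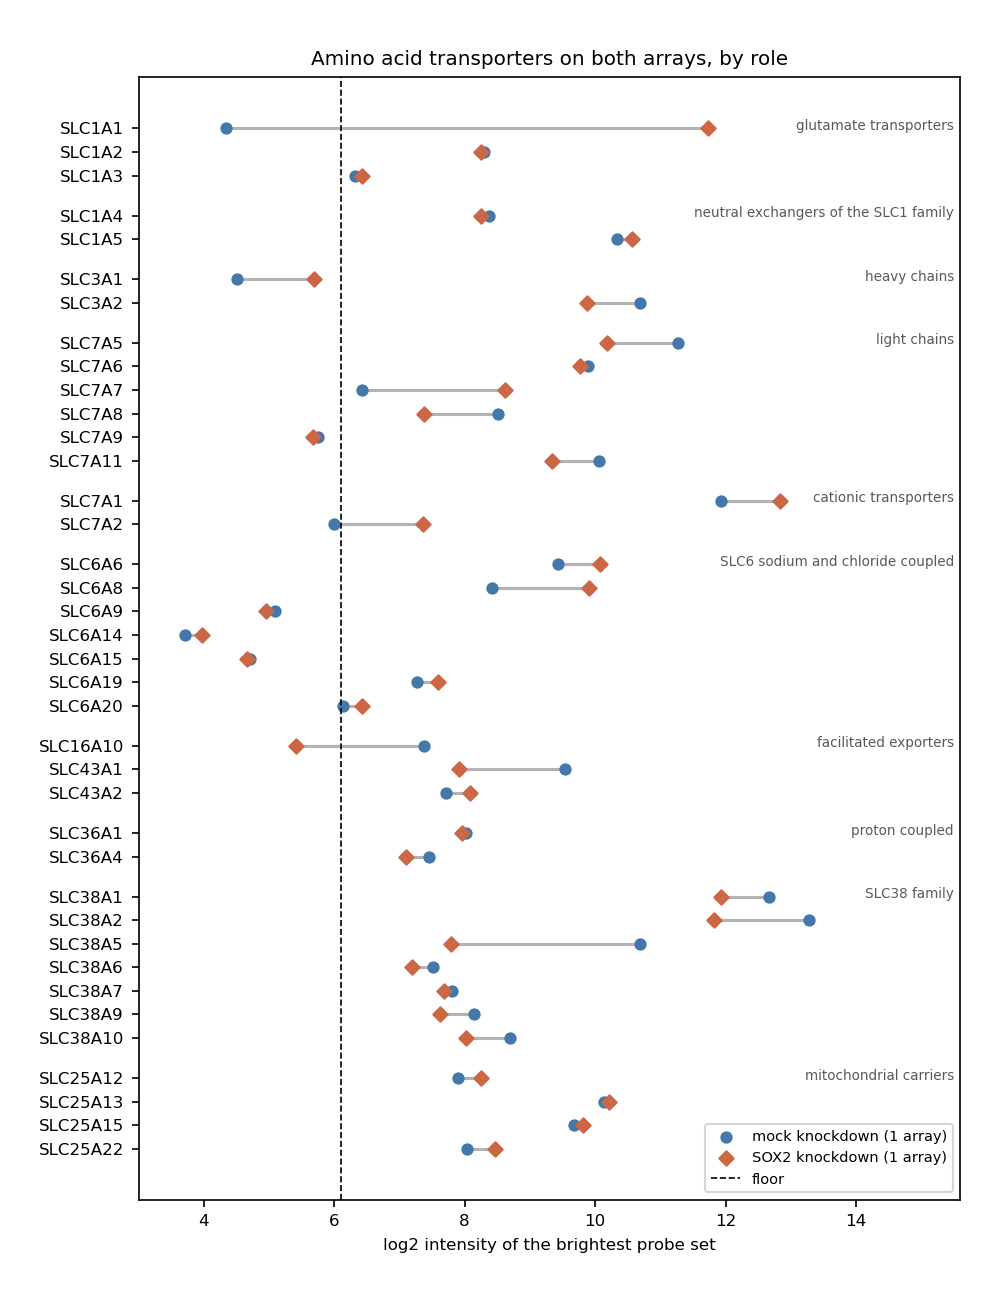
Log2 intensity of the brightest probe set of each of the 38 transporters (horizontal axis) on the mock array (circles) and the SOX2 knockdown array (diamonds), grouped by role, with the floor as a dashed line; each symbol is 1 array and there is no error bar because each group held 1 array. All 7 SLC38 genes have the diamond to the left of the circle, and all 4 mitochondrial carriers have it to the right.

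The SLC38 genes of the set, glutamine and small neutral amino acid carriers among them, were lower at the brightest probe set of each gene. Other probe sets of SLC38A10 were not. All 7 members were measured, all 7 lay below 0 and the median was -0.68, while 50.5% of all genes lay below 0. By 2-fold or more 2 of them were lower, 28.6%, beside 7.29% of all genes. All 7 also lay below 0 with each array centred on its median, with intensity-dependent centring and with quantile normalization. SLC38A3, of the same family but outside the set, read 85.4 and 94.1, close to the floor, a difference of 0.14. SLC38A4 and SLC38A11, also outside it, were under the floor on both arrays. SLC38A5, which carries glutamine, asparagine, serine, glycine and histidine, read 1656 in mock cells and 222 after SOX2 knockdown. Its difference of -2.90, or 7.45-fold lower, was the lowest of the 33 transporters, but it rested on a single probe set. SLC38A2, the neutral amino acid carrier that cells induce on starvation, read 9959 and 3642, 2.73-fold lower. Its 2 further probe sets gave larger differences, -1.80 and -1.87, so all 3 lay past 2-fold. All 3 carry identifiers that mark a possible match to several transcripts.

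SLC38A1, the main glutamine loader of many proliferating cells, read 6500 and 3914, a difference of -0.73. Further probe sets of SLC38A1 gave -0.90 and -0.74, and the dimmest, near the floor, gave -0.09. SLC38A10 read 416 and 261 at its brightest probe set, a difference of -0.68. Its other probe sets at the floor did not follow: they ran from -0.09 to 0.61, so the direction of SLC38A10 depended on the probe set. SLC38A9, the lysosomal arginine sensor of the growth kinase complex mTORC1, read 284 and 197, a difference of -0.53. SLC38A6 and SLC38A7, the latter a lysosomal exporter of glutamine, lay within 1.5-fold at -0.33 and -0.12.

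The heteromeric exchangers split. SLC3A2, the heavy chain known as CD98 that brings most light chains to the cell surface, read 1651 in mock cells and 944 after SOX2 knockdown, with 57.2% of the mock value left. SLC7A5 (LAT1), its partner for leucine and other large neutral amino acids, read 2479 and 1167 and was 2.12-fold lower. These 2 subunits of 1 exchanger were thus both lower, at -0.81 and -1.09. Each had 1 probe set, of the kind that can match several transcripts, and SLC7A5 has near-identical pseudogene copies, so its value is uncertain in that respect. SLC7A8 (LAT2), a light chain of epithelia for neutral amino acids, read 365 and 165 and was 2.20-fold lower. Its other probe sets at the floor gave -1.42 and, close to the floor, -0.26.

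SLC7A11 (xCT), the cystine importer that feeds glutathione synthesis, read 1064 and 645, a difference of -0.72. A further probe set of SLC7A11 gave -0.78, and the dimmest gave -0.08. SLC7A6, an exchanger of cationic for neutral amino acids, was little different at 948 and 872. SLC7A7 stood apart from the other light chains. This exporter of arginine and lysine on the basolateral side of gut and kidney epithelium, also made by monocytes and macrophages, read 85.6 and 395 and was 4.61-fold higher. It had a single probe set, of the kind that can match several transcripts. The monocyte marker CD14 read 43.6, under the floor, and 156, at least 2.28-fold higher, and LYZ read 213 and 11691. Another leukocyte marker, ITGAM, read 103 on both arrays. PTPRC, which marks leukocytes in general, read 16.7 and 19.9, and CD3E 61.6 and 61.5, all under the floor. Any link of these values to SLC7A7 was not tested. SLC3A1 and SLC7A9, the heavy and light chain of the apical cystine transporter of gut and kidney, were under the floor on both arrays, so no fold is given for them.

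The 2 cationic amino acid transporters of the set lay on the other side of 0 at their brightest probe sets. SLC7A1 (CAT1), the main arginine importer of most cells, read 3888 in mock cells and 7306 after SOX2 knockdown, 1.88-fold higher. Further probe sets of SLC7A1 gave 1.26 and 0.73, and the dimmest at the floor gave -0.13. SLC7A2, a related carrier of arginine, lysine and ornithine, read 63.7 and 165 and was at least 2.40-fold higher. Its other probe sets stayed under the floor on both arrays, at 0.18 and -0.12.

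Among glutamate transporters 1 of 3 differed by 2-fold or more. SLC1A1 (EAAT3), the glutamate and aspartate carrier of gut and kidney epithelium, which also takes up cysteine, read 20.3 in mock cells and 3405 after SOX2 knockdown, at least 49.7-fold higher. The second probe set of SLC1A1 read 70.3 and 193, a difference of 1.46. Both were higher, but the size depended on the probe set by a wide margin. SLC1A3, known from glial cells, was close to the floor at 79.5 and 86.0. SLC1A2, the other main glial carrier, read 314 and 305 at a probe set that can match several transcripts, and its 5 other probe sets were under the floor. The neutral exchangers of the same family were little different. SLC1A5 (ASCT2), which imports glutamine, read 1287 and 1511, a difference of 0.23. SLC1A4 (ASCT1), for alanine, serine and cysteine, gave -0.12 at its brightest probe set, with the other 3 at the floor from -0.71 to 0.03.

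Carriers of the SLC6 family move their load with sodium, and many of them also with chloride. Of the 7 in the set, 4 were measured and all 4 lay above 0, also under the other normalizations, while 50.5% of all genes lay below 0. With a lower floor, at the 25th percentile of intensities, 6 were measured and 2 of them lay below 0. Outside the set, SLC6A7 differed by -0.09, and SLC6A11, SLC6A13, SLC6A17 and SLC6A18 by 0.06, 0.06, 0.05 and 0.09. SLC6A8, the creatine transporter, read 343 and 964 and was 2.81-fold higher. The other probe sets of SLC6A8 gave 0.23 and 0.36, and the gene has near-identical pseudogene copies, so the size of this difference is uncertain. SLC6A6, the taurine transporter, read 694 and 1073, 1.55-fold higher, with a further probe set at 0.14. SLC6A19, the main apical carrier of neutral amino acids in the small intestine, and SLC6A20, a carrier of proline, lay within 1.5-fold at 0.32 and 0.30. CLTRN (collectrin), a protein that brings SLC6A19 to the surface in kidney, was under the floor on both arrays. SLC6A9, a glycine carrier, SLC6A14, a carrier of broad range found in colon and other mucosae, and SLC6A15, a neutral amino acid carrier of neurons, were also under the floor on both arrays.

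**Figure D2:**
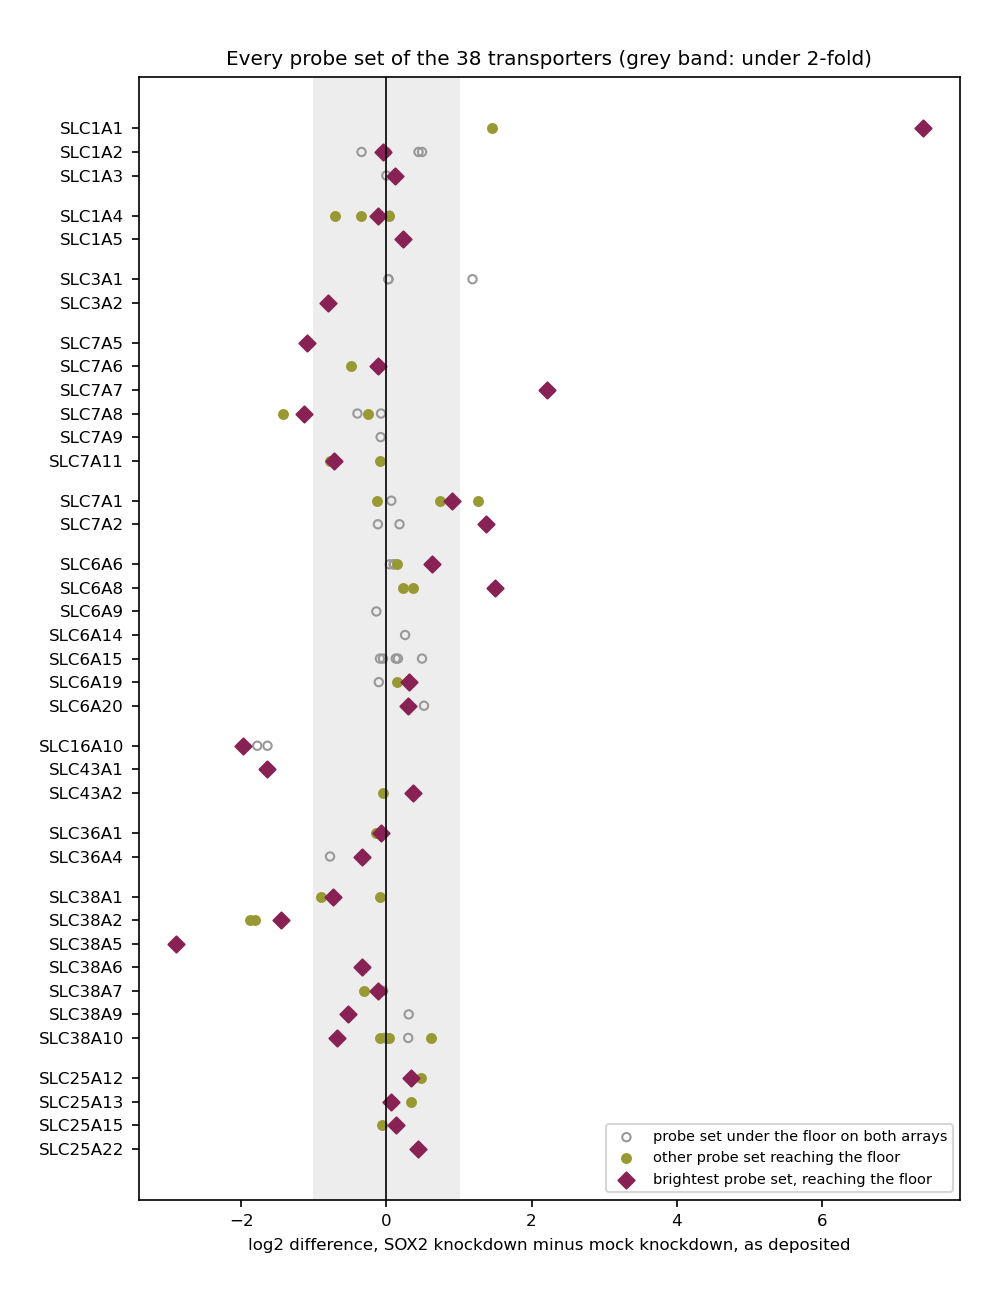
Log2 difference, SOX2 knockdown minus mock knockdown (horizontal axis), for all 102 probe sets of the 38 transporters, with 1 row a gene; diamonds are brightest probe sets and filled circles other probe sets reaching the floor, open circles probe sets under it on both arrays, and the grey band is less than 2-fold. The 3 filled symbols of SLC38A2 all lie left of the band, while those of SLC1A1, SLC6A8 and SLC38A10 are spread.

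Among facilitated carriers, which carry out release, SLC43A1 (LAT3), for branched-chain amino acids and phenylalanine, read 747 and 240 and was 3.12-fold lower, at its single probe set. SLC16A10 (TAT1), which carries aromatic amino acids, read 166 and 42.4 and was at least 2.43-fold lower. Its 2 other probe sets were under the floor on both arrays. SLC43A2 (LAT4), a close relative of SLC43A1, went the other way at 210 and 271, a difference of 0.36, and its second probe set gave -0.05. SLC36A1 and SLC36A4, grouped here as proton coupled, lay within 1.5-fold, at -0.07 and -0.34.

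The mitochondrial carriers of the set were little different and all 4 lay above 0, also under the 3 other normalizations. Of all genes, 50.5% lay below 0. Outside the set, the mitochondrial carriers SLC25A38, SLC25A29 and SLC25A44 differed by -0.51, 0.12 and 0.53. SLC25A22, which imports glutamate into the matrix, read 261 and 353, a difference of 0.43. The aspartate and glutamate carriers SLC25A12 and SLC25A13 gave 0.34 and 0.07. SLC25A15, the ornithine carrier of the urea cycle, gave 0.14, with a second probe set at -0.06.

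The agreement between probe sets of a gene on this pair of arrays was the only measure of spread, and it holds no variation between cultures. In 18 transporters with several probe sets at the floor the SD between them was 0.82 on the log2 scale, against 0.49 over all genes. SLC1A1 carried most of it: over the other 17 the SD was 0.39, below that of all genes. Of the members past 2-fold with several probe sets at the floor, SLC1A1 and SLC38A2 kept 2-fold in all of them, and SLC6A8 and SLC7A8 kept the direction in all and 2-fold in some.

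The transporters were then read beside genes of amino acid supply. Of 8 members known as ATF4 targets, 7 were measured: SLC7A11, SLC7A5, SLC3A2, SLC38A2 and SLC1A4 lay below 0 and SLC7A1 and SLC1A5 above it. Their median was -0.72, and 2 of the 7 (28.6%), SLC7A5 and SLC38A2, were at least 2-fold lower. The other 26 measured transporters had a median of 0.01, with 4 at least 2-fold higher and 4 lower, 15.4% each. Over all genes 8.44% were higher and 7.29% lower by as much. When probe sets that can match several transcripts were left out, only 3 of the ATF4 targets were measured, with a median of 0.23. ATF4 itself read 7976 in mock cells and 3231 after SOX2 knockdown, a difference of -1.30.

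The ATF4 and amino acid response was read from a list of 20 genes, 19 of them measured, that includes ATF4 itself. The median of -1.30 is the value of ATF4 given above, so the 2 are not separate results. Of the 19, 11 (57.9%), ATF4 among them, were lower by 2-fold or more and 0 higher, beside 7.29% and 8.44% of all genes. STC2, DDIT4 and TRIB3, all stress-induced genes, differed by -4.48 or lower, -3.68 and -2.44 (a further probe set of STC2 gave -2.19), and the transcription factor CEBPB by 0.59. Among 11 measured genes of serine, proline and one-carbon synthesis 5 (45.5%) were at least 2-fold lower and 1 (9.09%) higher, with a median of -0.83. PHGDH, PSPH and PSAT1, the enzymes of serine synthesis, differed by -1.92, -1.59 and -1.26, and ASL, which releases arginine from argininosuccinate, by 1.03. Cytosolic aminoacyl-tRNA synthetases, which load amino acids on transfer RNA, had a median of -0.47 over 17 genes. At least 2-fold lower were 2 of them, 11.8%, near the 7.29% of all genes, and 0 were higher. AARS1, TARS1 and GARS1 differed by -1.67, -1.07 and -0.94. The SLC38 median of -0.68 lay between the medians of the last 2 lists, but no test sets these lists apart.

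Further lists of amino acid metabolism had medians near 0, with single genes well away from 0 in both directions. For glutamine and glutamate enzymes the median over 6 genes was -0.02, with OAT, which makes glutamate semialdehyde from ornithine, at -1.63, the aspartate aminotransferase GOT2 at -0.89 and glutamine synthetase GLUL at 0.77. Glutathione synthesis, which uses the cystine that SLC7A11 imports, had a median of -0.02 over 9 genes, with GCLM at 1.02, its 3 probe sets at the floor running from 0.37 to 1.02, and GSS at -0.64. The list of mTORC1 amino acid sensing, in which SLC38A9 also acts, had a median of 0.04 over 20 genes. The list held 1 gene at least 2-fold higher and 1 lower, 5% each, beside 8.44% and 7.29% of all genes. In it the Rag GTPase RRAGD differed by -2.96, NPRL3 by -0.84 and WDR24 by -0.82, against LAMTOR3 at 1.52 and SESN1 at 0.95, while further probe sets of NPRL3 and LAMTOR3 gave 0.04 and 0.62. Branched-chain breakdown had a median of 0.08 over 5 genes, with BCKDHA at 0.85.

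Partners and regulators of the transporters included large differences both ways. SGK1, a kinase that raises the surface level of many transporters, read 129 and 4822, a difference of 5.22. CD44, whose variant form stabilises SLC7A11 at the surface, differed by 3.86 at its brightest probe set, with its 9 probe sets at the floor from 0.13 to 3.86. ARL6IP5, which binds SLC1A1 and holds back its transport, differed by 0.66. BSG, a chaperone of monocarboxylate transporters, differed by -1.14. The list had a median of 0.48 over 8 genes. Among 35 other amino acid transporters outside the set, 17 were measured, with a median of 0.06. None was 2-fold different either way, beside 8.44% of all genes higher and 7.29% lower. SLC7A4, the lowest of these, read 108 and 62.6, at least 1.57-fold lower, and its second probe set gave 0.09.

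**Figure D3:**
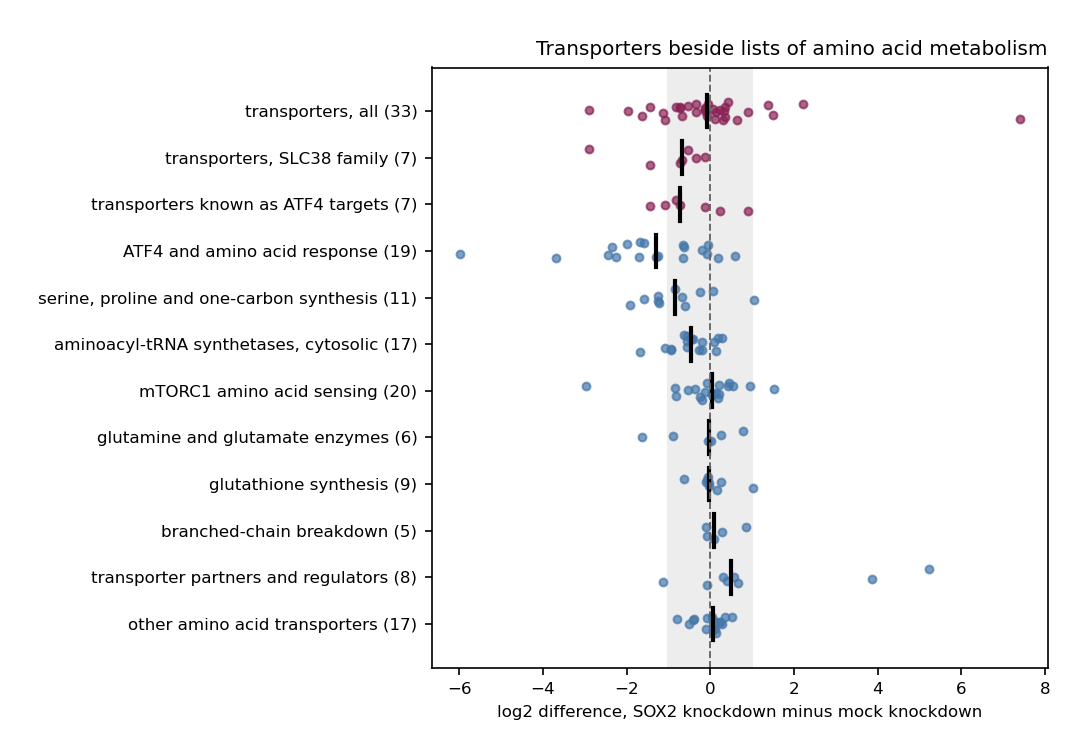
Log2 difference, SOX2 knockdown minus mock knockdown (horizontal axis), of each measured gene in the transporter groups (top 3 rows) and in lists of amino acid metabolism (number of genes in brackets); thick bars are medians, the dashed line is the median of all genes and the grey band is less than 2-fold. The SLC38 row and the ATF4 target row have medians of -0.68 and -0.72, left of the line, while the row of all transporters is centred near 0.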

How the data were processed

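Gene expression in 2 SW620 cultures, 1 mock knockdown and 1 SOX2 knockdown, was measured on Affymetrix arrays. The deposited intensity values, on a linear scale, were made by the authors with RMA (version not given in the sources used here), per the submitters' processing notes. As RMA normalizes quantiles, total RNA per cell is not measured, and fewer cells of a type and less RNA per cell cannot be told apart. Samples were grouped by source name; the titles end in KO, and a label line on mouse liver matches neither sample.

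Of 54613 probe sets other than 62 controls, 41091 had 1 gene symbol, 1801 several and 11721 none in the platform annotation; only the first were used. Of these, 41037 were found by Entrez identifier in RefSeq, which changed 0 symbols. Log2 values were taken with no pseudocount. No test was possible with 1 array a group, and a limit of 2-fold was used. The members, lists, roles and motifs were chosen with earlier results of these data known. Every member was named; a member's intensities were given where it differed at least 1.5-fold or stood for its role group, and some others were added after their values were seen. From each other list up to 3 genes each way past 1.5-fold were named. ATF4 and the marker genes were named outside this rule. Alternatives were other normalizations, floors, probe set choices, a pseudocount and other limits. The counting of genes past the limit was tested on simulated data. Python 3.11.15, numpy 2.4.6, pandas 2.3.3 and matplotlib 3.10.9 were used.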

Additional observations from a re-analysis of the deposited data

How the results depend on the processing

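The number of transporters at least 2-fold higher (4) or lower (6) stayed within 1.5 times its value, and the median difference within the spread between probe sets, in 35 of 40 comparisons with an alternative setting. With both arrays required to reach the floor, 2 transporters were at least 2-fold higher. With probe sets of possible multiple matches left out, 24 transporters were measured, with a median of 0.09, on the other side of 0. Of these, 2 were lower by 2-fold or more. SLC38A2, SLC7A5 and SLC16A10 then had no probe set at the floor, and SLC7A8 differed by -0.26. SLC7A7 also had none. The count of 4 higher stayed, with SLC7A1 at 1.26 now past 2-fold. At a limit of 1.5-fold 10 were lower, and at 3-fold 2 were higher and 3 lower. The median ran from -0.10 to 0.09. The spread used here was the SD over all genes, 0.49. That is a spread of single genes and is wide for a median, so the comparisons of the median could hardly fail. All 5 comparisons that moved were of counts. The difference of single transporters moved by more than 0.49 in 15 of 377 comparisons, most often for SLC1A1. No transporter past 2-fold changed sign. Settings that changed only which genes counted as measured left every difference as it was, so many of the 377 could not move. The 15 moves came from other probe set choices, values raised to the floor or a pseudocount. With the probe set of smallest difference, 6 of 7 SLC38 genes lay below 0 and 3 of 4 mitochondrial carriers above. No paired analysis was possible because each group held 1 array. Signal over background limits SLC3A1, SLC7A9, SLC6A9, SLC6A14 and SLC6A15, which were under the floor on both arrays.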

Other observations

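Along chromosomes, 2 pairs of measured transporters lay within 20 protein-coding genes of each other in the RefSeq order. SLC38A1 and SLC38A2 are direct neighbours on chromosome 12 and were both lower, at -0.73 and -1.45. SLC7A7 and SLC7A8 lie on chromosome 14 with 16 protein-coding genes between them and differed in opposite directions, at 2.21 and -1.14. Genes between these light chains also went both ways: the lipoprotein receptor family member LRP10 differed by 1.29, while the arginine methyltransferase PRMT5, the junction protein AJUBA and the mitochondrial ribosomal gene MRPL52 differed by -1.25, -1.40 and -1.18. These genes were singled out after their values were seen.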
